A study of Mus musculus with 25 samples.

Results

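Glycolysis and hypoxia genes are described here as a set of 34, chosen by gene symbol from the 43693 genes of the sorted-cell table and followed by gene identifier through 25 mouse RNA sequencing libraries. Glycolysis splits glucose into pyruvate, which lactate dehydrogenase turns into lactate or which the pyruvate dehydrogenase complex passes to the mitochondria. Under low oxygen the hypoxia-inducible factors escape degradation and switch on glucose transporters, most glycolytic enzymes and secreted signals such as Vegfa. In the spinal cord, astrocytes take up glucose at their contacts with vessels and are held to release lactate to neurons. By role, the list has 3 genes of glucose entry and phosphorylation, 7 of upper glycolysis, 5 of lower glycolysis and 4 of lactate and its transport. It also has 4 enzymes that set the flow of pyruvate or of fructose phosphates, 2 hypoxia-inducible factors, 3 secreted hypoxia targets and 6 other hypoxia targets. Every member passed the filter on low counts in each of the 4 tables.

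The libraries fall into cells sorted as spinal cord astrocytes, whole injured cord and cultured brain astrocytes. The sorted cells came from mice of genotype GFAP-Cre-/+:R26-tdT-/+, in which a recombinase under the GFAP promoter switches on the red protein tdTomato, also in descendants of cells that once expressed it. TdTomato-positive cells were sorted after enzyme digestion and removal of myelin. Sham mice had only a laminectomy at thoracic level T9 and were taken after 7 days (3 libraries). Injured mice had a T9 contusion of 60 kdyn and were taken after 7 days (3 libraries), 1 month (3) or 3 months (2). Sham cells were from 7 days alone, so age and injury cannot be told apart at 1 and 3 months. Tissue came from the injury epicentre of C57BL/6 mice at 1 month (3 libraries) and 3 months (3), with no sham tissue. Each sorted or tissue library pooled 3 mice. The cultures were C57BL/6 brain astrocytes of postnatal day 4 to 7, given a control lentivirus or a knockdown lentivirus against Zeb2os or Zeb2, followed by puromycin at 1 µg/ml. Puromycin selection began at 24 h in the Zeb2os set and at 48 h in the Zeb2 set. It lasted 3 days in the Zeb2 set, and the labels do not give its length consistently for the Zeb2os set. There were 4 culture groups of 2 libraries. Whether these came from separate cultures is not stated, so their p-values measure only the spread between samples, which may be technical.

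Total counts per library ran from 15712423 to 50211071 in sorted cells, 15423131 to 27138885 in tissue, 45627745 to 158099842 in the Zeb2os set and 29026654 to 65433537 in the Zeb2 set. Sorted sham libraries held 5963 to 7061 CPM (counts scaled to one common library total) over 11 astrocyte markers and 9793 to 12030 CPM over 10 oligodendrocyte precursor markers. The 12 microglia and macrophage markers summed to 371 to 1668 CPM in sham, the highest being sham replicate 1, and to 10240 to 13540 CPM at 3 months. In the cultures, 10 fibroblast and mural markers summed to 5337 to 14900 CPM and 11 astrocyte markers to 719 to 1569 CPM. Zeb2 read 147 and 134 CPM in its control cultures and 23.2 and 16.2 CPM in its knockdown cultures. Zeb2os read 5.82 and 3.80 CPM in its controls and 3.14 and 4.32 CPM in the libraries labelled Zeb2os knockdown, so those groups overlapped for the targeted gene.

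Promoters of 3 genes that moved in every comparison with sham are shown. Hk2 and Slc16a3 rose and Vegfa fell. Hypoxia-inducible factors are known to bind a core of ACGTG or GCGTG. Both were searched on both strands in the 250 bases before the RefSeq start (build GRCm38.p6), and a CACGTG, the core of the E-box bound by other factors, counts as ACGTG too. Capitals mark a match in either orientation.
Hk2 (chr6:82774455-82774704, minus strand): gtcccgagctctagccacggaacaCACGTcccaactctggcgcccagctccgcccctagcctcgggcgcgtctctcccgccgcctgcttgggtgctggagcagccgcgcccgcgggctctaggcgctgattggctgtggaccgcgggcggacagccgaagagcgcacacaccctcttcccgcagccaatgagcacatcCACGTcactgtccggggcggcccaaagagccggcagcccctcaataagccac
Slc16a3 (chr11:120948817-120949066, plus strand): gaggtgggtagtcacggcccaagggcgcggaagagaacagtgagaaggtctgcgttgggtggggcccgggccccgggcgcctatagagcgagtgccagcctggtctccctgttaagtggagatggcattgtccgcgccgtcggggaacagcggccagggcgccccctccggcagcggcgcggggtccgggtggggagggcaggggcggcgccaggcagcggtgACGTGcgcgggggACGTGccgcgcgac
Vegfa (chr17:46032378-46032627, minus strand): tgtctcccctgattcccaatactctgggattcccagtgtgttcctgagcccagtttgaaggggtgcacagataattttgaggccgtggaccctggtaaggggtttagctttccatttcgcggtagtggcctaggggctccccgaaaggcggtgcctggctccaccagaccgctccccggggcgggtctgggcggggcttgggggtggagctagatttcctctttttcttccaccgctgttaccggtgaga

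The Hk2 and Slc16a3 windows each held 2 copies of ACGTG, and the Vegfa window held neither motif. The other members that moved in every comparison with sham all fell and all held a motif. Pfkm had 1 site, a CACGTG, which reads as ACGTG on each strand. Pfkp had 3 copies of GCGTG and Aldoc 1. Of 31 members matched to a RefSeq promoter, 25 (80.6%) held ACGTG or GCGTG, against 44.0% of 21263 coding promoters and 38.6% of all 32851 promoters of the same length. ACGTG alone stood in 15 members (48.4%), against 17.8% of coding promoters. Of these members Pfkm, Ldha, Slc16a1, Hif1a and Bnip3 held CACGTG, which stood in 6.02% of all promoters. Median GC content was 59.2% in members and 55.6% in coding promoters. These shares describe letters in a window. The genes lie at chr6:82725025-82774454 (Hk2), chr11:120948480-120960868 (Slc16a3) and chr17:46016993-46032369 (Vegfa) in GENCODE M21, on the same build. The Slc16a3 window therefore lies inside the GENCODE gene, whose start is 587 bases from the RefSeq start. Sites outside the windows were not searched.

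At 7 days after injury, sorted cells differed from sham in 13 of 34 members, of which 4 were higher and 9 lower. Aldoc and Vegfa fell most, 5.64-fold and 5.26-fold, and Angptl4 rose most, 12.6-fold. Hk2 and Slc16a3 rose too, while the 5 enzymes of lower glycolysis from Gapdh to Pkm had no call by edgeR. The share called was 38.2%, against a background of 18.3% of the 24286 genes tested (9.87% higher, 8.41% lower). Backgrounds here and below were not matched to the members for level or gene type. Long noncoding RNA genes made up 21811 of the 43693 genes in the table before the filter. The median log2 change was -0.30 over members and -0.06 over all genes. At 1 month 8 members differed from sham (2 higher, 6 lower), against a background of 12.1% (6.23% higher, 5.83% lower). At 3 months 8 differed (4 higher, 4 lower), against 11.7% (6.78% higher, 4.93% lower). All 3 comparisons share the sham libraries and are not independent of each other. Over the 4 sorted groups at once, 14 members differed somewhere, against 20.1% of genes. A call, here and below, is an adjusted p under 0.05 by edgeR's quasi-likelihood test with Benjamini-Hochberg adjustment over all genes tested. DESeq2 called 17 members at 7 days, 11 at 1 month and 10 at 3 months against sham.

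**Figure D1:**
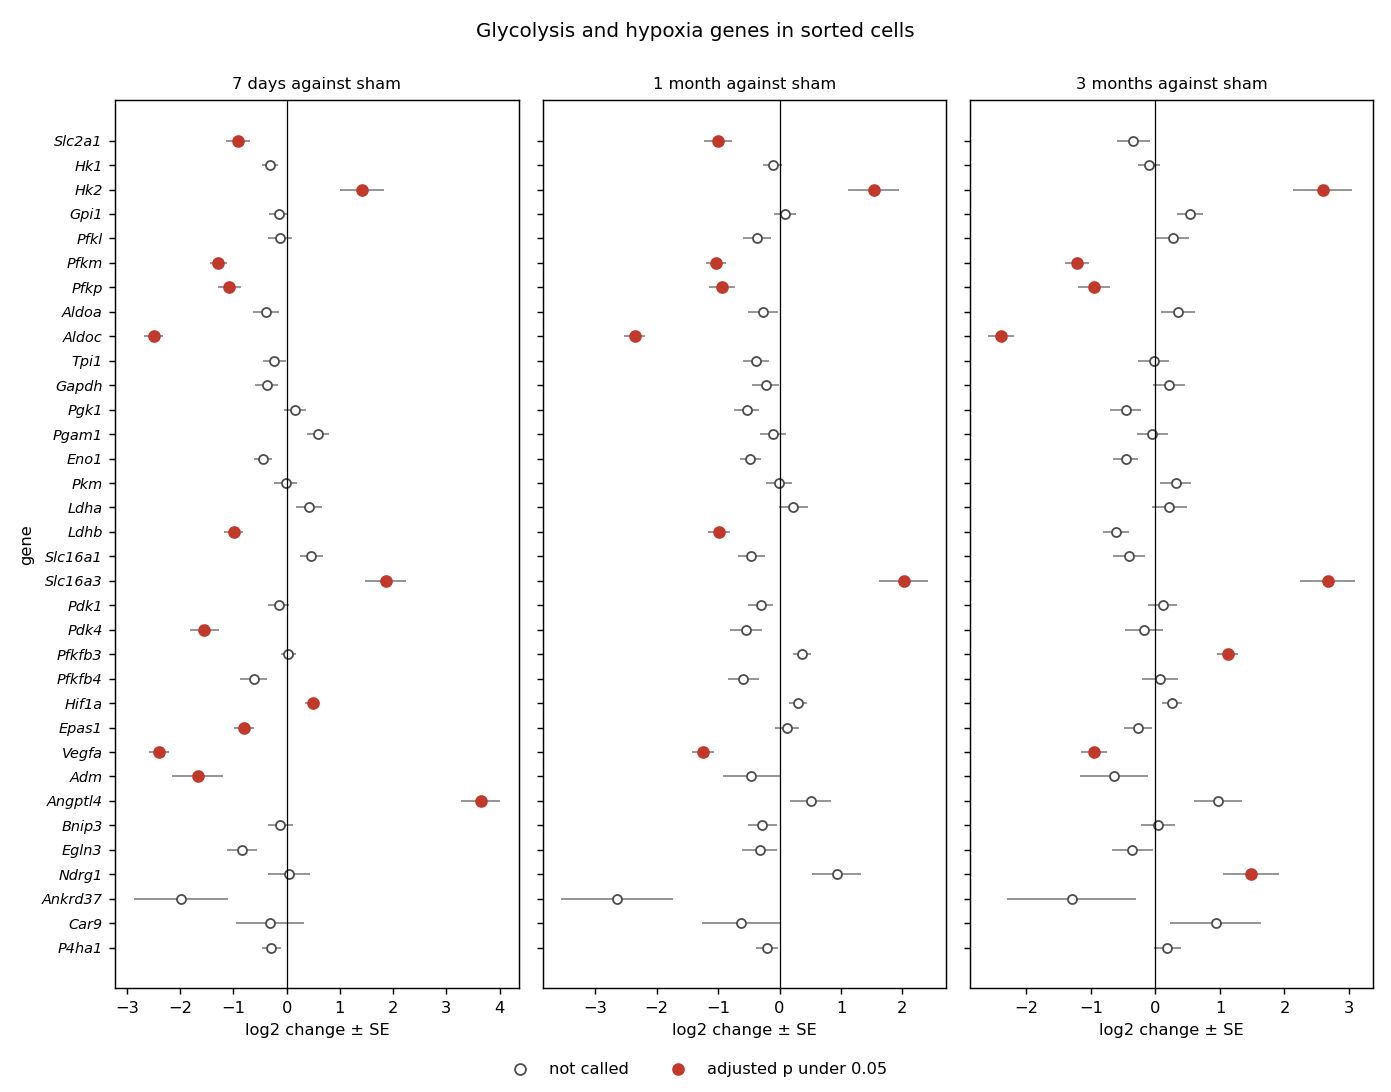
Log2 change with its standard error for the 34 members (rows, by role) in sorted cells at 7 days, 1 month and 3 months against sham (3, 3, 3 and 2 libraries). Red points passed the adjusted p of 0.05 and open points did not. Aldoc and Vegfa lie far to the left at 7 days and Angptl4 far to the right, and the rows from Gapdh to Pkm have open points in each panel.

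The glucose transporter Slc2a1 (GLUT1), the main carrier of glucose across the blood-brain barrier and into astrocytes, read 594, 264 and 383 CPM in sham libraries and 192.5, 225 and 242 CPM at 7 days. It read 200.4, 207.5 and 212 CPM at 1 month and 322 and 330 CPM at 3 months. Every 7-day and 1-month library was below every sham library, and the 3-month libraries lay inside the sham range. The log2 change was -0.91 ± 0.23 (SE) at 7 days (adjusted p = 0.00962) and -1.0 ± 0.23 at 1 month (0.00806), and -0.345 ± 0.25 at 3 months (0.419). The 7-day call was lost without 7-day replicate 1 and with the 2 groups fitted alone (highest adjusted p 0.0599), and the 1-month call without 1-month replicate 2 (0.05).

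The hexokinases trap glucose as glucose 6-phosphate. Hk2, the inducible form, read 36.5, 9.63 and 9.26 CPM in sham, 45.2, 55.3 and 47.3 CPM at 7 days, 39.3, 43.4 and 78.6 CPM at 1 month, and 109 and 114 CPM at 3 months. Sham replicate 1 stood well above the other two sham libraries, and every injured library was above it. The log2 change from sham was 1.41 ± 0.42 at 7 days (adjusted p = 0.0265), 1.53 ± 0.42 at 1 month (0.0241) and 2.59 ± 0.46 at 3 months (0.00141). The 7-day call was lost without sham replicate 2 or 3, without 7-day replicate 2 or 3 and with the 2 groups alone (highest adjusted p 0.0929). The 1-month call was lost without sham replicate 2 or 3 or 1-month replicate 3 and with the 2 groups alone (highest 0.15), and the 3-month call held in each fit that left out a library. Hk1, the constitutive form, stayed between 99.5 and 155 CPM in the sorted libraries and had no call.

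In upper glycolysis 3 of 7 genes fell at each time after injury: Aldoc, Pfkm and Pfkp. Aldoc encodes the brain aldolase, which cleaves fructose 1,6-bisphosphate and is a marker of mature astrocytes. It read 1279, 927 and 908 CPM in sham, 193, 187 and 172 CPM at 7 days, 197, 196 and 213 CPM at 1 month, and 187 and 208 CPM at 3 months. Each injured library lay far below the lowest sham library, and the 3-month libraries overlapped those of 7 days and of 1 month. The 1-month libraries were slightly above those of 7 days. Its log2 change was -2.50 ± 0.17 at 7 days (adjusted p = 2.98e-07), -2.36 ± 0.17 at 1 month (7.19e-07) and -2.39 ± 0.20 at 3 months (2.5e-06). Per kb of exon, Aldoc was the highest of the 34 members in sham, at 318 ± 64.1 CPM per kb (SD, n = 3), and ranked 11 at 7 days, at 56.3 ± 3.35 CPM per kb (n = 3).

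Pfkm, the muscle-type subunit of phosphofructokinase, the main control point of the pathway, read 321, 330 and 280 CPM in sham and between 112 and 162 CPM in the 8 injured libraries. Its log2 change was -1.28 ± 0.16 at 7 days, -1.03 ± 0.16 at 1 month and -1.22 ± 0.19 at 3 months, with a highest adjusted p of 0.000638. Pfkp, the platelet-type subunit, read 69.9, 105 and 69.8 CPM in sham and between 33.6 and 49.8 CPM after injury. The groups did not overlap for either subunit. Log2 changes of Pfkp were -1.08 ± 0.21, -0.94 ± 0.21 and -0.95 ± 0.24 in the same order, and the calls were lost without 1-month replicate 2 (adjusted p = 0.0655) and, at 3 months, without 3-month replicate 1 or with the 2 groups alone (highest 0.166). Pfkl, the liver-type subunit, Gpi1, Aldoa and Tpi1 had no call against sham, with log2 changes from -0.39 to 0.54.

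The 5 genes of lower glycolysis recover the energy of the pathway as ATP. They were among the highest members per kb, and edgeR called none of them in a sorted comparison. DESeq2 called Eno1 at 7 days (-0.44, adjusted p = 0.0207) and at 1 month (-0.48, 0.0161), and Pgam1 at 7 days (0.59, 0.0254). Pgam1 was also called at 7 days with DESeq2 size factors (0.0484) and with no count filter (0.0123). Gapdh read 1046, 489 and 690 CPM in sham, 529, 591 and 595 CPM at 7 days, 595, 673 and 639 CPM at 1 month, and 786 and 927 CPM at 3 months. Pkm, the last enzyme, read 1116, 605 and 621 CPM in sham and between 699 and 1031 CPM after injury. For both genes sham replicate 1 was the highest sorted library and every injured library lay within the sham range. Pgk1 at 7 days was 0.15 ± 0.21 from sham on the log2 scale (adjusted p = 0.701), Eno1 -0.44 ± 0.17 (0.0944) and Pgam1 0.59 ± 0.21 (0.0635). Eno1b, a near copy of Eno1, read at most 3.87 CPM in a sorted library. Reads of Gapdh, Pgk1, Pgam1, Aldoa and Ldha may be split with pseudogenes, of which the annotation names 2 after each gene. Pseudogenes under other names were not counted, so these and other members may have more. The 12 enzymes from Gpi1 to Pkm summed to 4963 ± 1356 CPM in sham (SD, n = 3), 3499 ± 323 at 7 days (n = 3), 3421 ± 214 at 1 month (n = 3) and 4197 ± 431 at 3 months (n = 2). Without Aldoc the sums were 3925 ± 1151, 3315 ± 334, 3219 ± 212 and 4000 ± 416 CPM, and each injured mean lay within 1 SD of the sham mean.

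Lactate dehydrogenase joins Ldha subunits, which favour lactate formation, and Ldhb subunits, which favour its use. Ldhb read 354, 217 and 295 CPM in sham, 144, 148 and 145 CPM at 7 days, 128, 164 and 144 CPM at 1 month, and 183 and 193 CPM at 3 months. All injured libraries were below the lowest sham library. Its log2 change was -0.99 ± 0.18 both at 7 days (adjusted p = 0.00102) and at 1 month (0.00169), and -0.62 ± 0.20 at 3 months (0.0596). Ldha was 111 to 271 CPM in sham and 220 to 308 CPM after injury, without a call.

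Slc16a3 (MCT4), a carrier known for lactate export from glycolytic cells, read 7.36, 2.21 and 8.35 CPM in sham, 15.2, 23.6 and 25.8 CPM at 7 days, 18.6, 22.2 and 31.6 CPM at 1 month, and 36.6 and 38.8 CPM at 3 months. All 8 injured libraries were above the highest sham library. The log2 change was 1.86 ± 0.39 at 7 days (adjusted p = 0.00316), 2.02 ± 0.39 at 1 month (0.00285) and 2.67 ± 0.425 at 3 months (0.0006). Slc16a1 (MCT1), which carries lactate in both directions, read 115, 56.9 and 84.3 CPM in sham and 119, 106 and 129 CPM at 7 days, then 65.1, 69.0 and 51.9 CPM at 1 month and 69.3 and 59.4 CPM at 3 months. It had no call against sham, and it was lower at 1 month than at 7 days by -0.93 ± 0.22 (adjusted p = 0.0346). That call was lost without any 1 of the 6 libraries compared (highest 0.187), as was the same call at 3 months (-0.87 ± 0.25, 0.0492, highest 0.336 over 5 such fits).

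**Figure D2:**
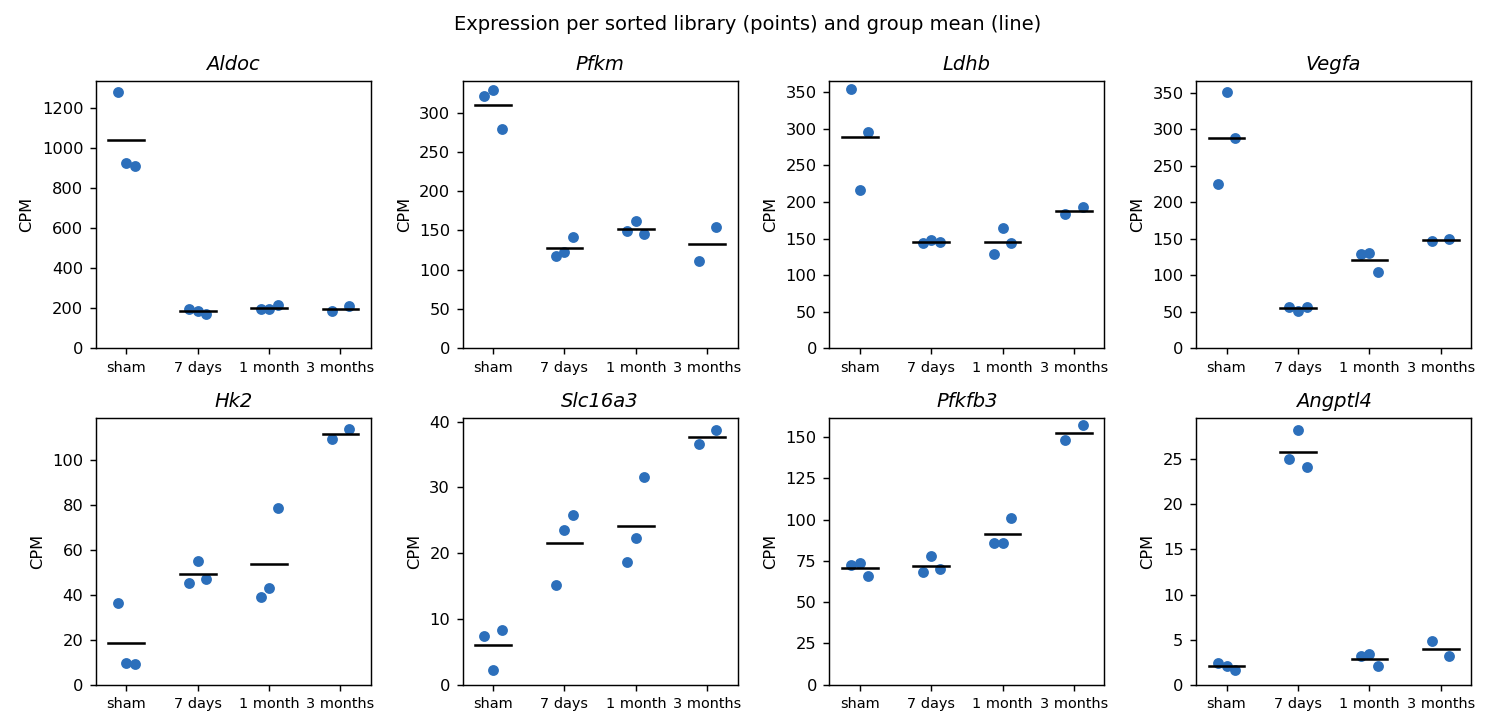
CPM per sorted library (points, y axes linear from 0) and group means (lines) for 8 members in sham, 7-day, 1-month and 3-month groups. Aldoc, Pfkm and Ldhb sit high in sham alone, Hk2 and Slc16a3 are highest at 3 months, Vegfa is lowest at 7 days, and Angptl4 is high in the 7-day libraries, at 24.2 to 28.3 CPM.

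Of the enzymes that set the flow into and out of the pathway, Pdk4 fell at 7 days and Pfkfb3 rose at 3 months. Pdk4 phosphorylates and so inhibits pyruvate dehydrogenase. It read 26.2, 19.6 and 24.5 CPM in sham, 10.9, 6.13 and 7.03 CPM at 7 days, 15.3, 19.0 and 13.8 CPM at 1 month, and 21.2 and 20.2 CPM at 3 months. The 7-day libraries lay below all the others, with a log2 change of -1.55 ± 0.27 from sham (adjusted p = 0.000845). From 7 days to 3 months it rose by 1.37 ± 0.295 (0.0119), a call lost in 4 of 5 fits without a library (7-day replicates 2 and 3, both 3-month replicates, highest 0.0791).

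Pfkfb3 makes fructose 2,6-bisphosphate, the strongest activator of phosphofructokinase. It read 72.2, 73.4 and 65.6 CPM in sham, 68.3, 77.8 and 70.1 CPM at 7 days, 86.1, 86.0 and 101 CPM at 1 month, and 148 and 157 CPM at 3 months. Sham and 7 days overlapped, and the 3-month libraries were above all 9 others. The log2 change at 3 months was 1.12 ± 0.16 from sham (adjusted p = 0.000261) and 1.08 ± 0.16 from 7 days (0.00102). Pdk1 and Pfkfb4 had no call in sorted cells, with ranges of 29.5 to 56.4 CPM and 17.4 to 43.4 CPM.

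Hif1a and Epas1 encode the alpha subunits of the hypoxia-inducible factors, which are regulated mainly through protein stability. Hif1a read 149, 160.2 and 160.2 CPM in sham and 233, 221 and 206 CPM at 7 days, with 180 to 209 CPM later. All injured libraries were above sham, and the change of 0.49 ± 0.14 at 7 days was called (adjusted p = 0.0227), with the call lost without 7-day replicate 1 or 2 or with the 2 groups alone (highest 0.0972). Epas1 (HIF-2 alpha), which is abundant in endothelium and astrocytes, read 318, 533 and 324 CPM in sham, 210, 224 and 239 CPM at 7 days, 423, 407 and 448 CPM at 1 month, and 314 and 335 CPM at 3 months. It was lower at 7 days by -0.80 ± 0.19 (0.00705). From 7 days to 1 month it rose by 0.925 ± 0.19 (0.0191), which was lost without any 1 of the 6 libraries (highest 0.112).

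All 3 secreted targets changed at 7 days, 2 down and 1 up. Vegfa, the growth factor for vessels, read 225, 351 and 288 CPM in sham, 56.8, 50.9 and 56.6 CPM at 7 days, 129, 130.5 and 104 CPM at 1 month, and 147 and 150 CPM at 3 months. The 3 levels did not overlap: sham highest, later times between, 7 days lowest. Its log2 change from sham was -2.40 ± 0.18 at 7 days (adjusted p = 7.34e-07), -1.25 ± 0.18 at 1 month (0.000263) and -0.96 ± 0.20 at 3 months (0.00484). The 3-month call was lost without 3-month replicate 3 or with the 2 groups alone (highest 0.12). From 7 days Vegfa rose by 1.14 ± 0.18 to 1 month (0.00307) and by 1.44 ± 0.19 to 3 months (0.000434).

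Angptl4, a secreted inhibitor of lipoprotein lipase that also responds to fatty acid receptors, read 2.37, 2.11 and 1.63 CPM in sham, 25.0, 28.3 and 24.2 CPM at 7 days, 3.18, 3.47 and 2.08 CPM at 1 month, and 4.90 and 3.14 CPM at 3 months. The 7-day libraries stood apart from all 8 others. The log2 change from sham was 3.65 ± 0.37 at 7 days (adjusted p = 7.78e-06), followed by -3.15 ± 0.35 from 7 days to 1 month (0.000824) and -2.68 ± 0.41 from 7 days to 3 months (0.00127). Adm, adrenomedullin, a peptide that widens vessels, read 7.36, 6.64 and 9.87 CPM in sham and 1.95, 2.00 and 3.50 CPM at 7 days, with 3.18 to 7.19 CPM later. Its 7-day change of -1.67 ± 0.48 (0.0214) was lost without 7-day replicate 1 or 2 (highest 0.107).

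Of the 6 other hypoxia targets, edgeR called none at 7 days or 1 month. DESeq2 called Ankrd37 at 7 days (-2.01, adjusted p = 0.0412) and at 1 month (-2.67, 0.00692) and Egln3 at 7 days (-0.84, 0.0181). With no count filter, Egln3 at 7 days (0.0399) and Ndrg1 at 1 month (2.9e-05) were called, and with DESeq2 size factors Egln3 at 7 days (0.0429). Ndrg1, a stress-induced gene that oligodendrocytes also express strongly, read 86.7, 26.4 and 147 CPM in sham, 72.4, 86.0 and 109 CPM at 7 days, 157, 186 and 151 CPM at 1 month, and 191 and 292 CPM at 3 months. It was higher than sham at 3 months by 1.48 ± 0.43 (adjusted p = 0.0365), and the call was lost with DESeq2, with the 2 groups alone, and without sham replicate 1 or 3-month replicate 3 (highest 0.294). P4ha1, the highest of these per kb in sorted cells and an enzyme that hydroxylates collagen, lay between 106 and 177 CPM. Egln3, a prolyl hydroxylase that marks the factors for degradation, was at -0.84 ± 0.285 at 7 days (0.0511), and Bnip3, which promotes removal of mitochondria, at -0.12 ± 0.24 (0.805). Ankrd37 and Car9 were low, at 0.10 to 7.93 CPM and 1.27 to 5.67 CPM. Exons of other genes cover 22.7% of the exonic bases of Ankrd37 (Lrp2bp, opposite strand) and 22.3% of those of Bnip3 (Gm45507, opposite strand), so their counts are uncertain without a stated strand setting.

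Within the sorted time course after injury, 4 members differed between 1 month and 7 days (2 higher, 2 lower, background 2.61%, of which 1.52% higher and 1.09% lower) and 5 between 3 months and 7 days (3 higher, 2 lower, background 6.05%, of which 2.53% higher and 3.52% lower), all named above. None was called between 3 months and 1 month (background 0.387%, of which 0.103% higher and 0.284% lower), where 8 had an unadjusted p under 0.05 and DESeq2 called 1. The highest value there was Car9 at 1.56 ± 0.70 (adjusted p = 0.407), and Pfkfb3 at 0.75 ± 0.16 came nearest to the threshold (0.0628).

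Markers of other cells moved in the same comparisons. Summed over 12 microglia and macrophage markers, sorted libraries held 4998 to 7624 CPM at 7 days and 4038 to 6370 CPM at 1 month, and 11, 11 and 12 of the 12 markers rose at 7 days, 1 month and 3 months. C1qa, a complement gene, lay between 51.8 and 190 CPM in sham and read 1533 and 2379 CPM in the 3-month libraries, and C1qb reached 1298 and 1778 CPM. The 12 endothelial markers gave sums between 70.3 and 252 CPM in sham, and between 598 and 710, 326 and 356, and 531 and 766 CPM in order of time after injury. The 10 fibroblast and mural markers gave 158 to 616 CPM in sham and 3220 to 3416 CPM at 7 days. The 6 ependymal markers gave 700 to 1756 CPM and 254 to 319 CPM in the same groups. The 10 oligodendrocyte markers gave 404 to 1293 CPM in sham and 1714 to 1814 CPM at 7 days. They gave 1400 to 1649 CPM at 1 month and 1832 to 1897 CPM at 3 months. Of the 10, 2 rose at 7 days, 0 at 1 month and 2 at 3 months. Astrocyte markers summed to 2895 to 3424 CPM at 7 days, and 9 of 11 fell there. Gfap rose there by 2.40 ± 0.245 (adjusted p = 9.44e-06). The astrocyte sums were 2032 to 2122 CPM at 1 month and 1799 to 1844 CPM at 3 months, with 9 and 8 of 11 markers below sham. Gfap had no call against sham then, at -0.047 ± 0.233 at 1 month and -0.482 ± 0.264 at 3 months. The 10 oligodendrocyte precursor markers gave 10010 to 11710 CPM at 7 days and 12280 to 12550 CPM at 1 month. At 3 months they gave 7538 to 9284 CPM. Against sham 1 of 10 fell at 7 days, 1 rose at 1 month and 1 fell at 3 months. In every sorted group these sums were above those of the astrocyte markers. Sums over different lists do not measure shares of cells. Immediate early genes, which respond to cell isolation among other things, summed to 13030 to 28990 CPM in sham and 7791 to 8307 CPM at 7 days, where 11 of 15 fell. They summed to 16890 to 19930 CPM at 1 month and 21480 to 23670 CPM at 3 months. Compared with 7 days, 7 of 15 were higher at 1 month and 10 at 3 months, with 0 lower at either time. No microglia, endothelial or astrocyte marker was at 0 in all libraries of a sorted group. The part of these markers in the changes of Hk2, Slc16a3, Aldoc or any other member was not tested. In bulk libraries, fewer cells of a type and less RNA per cell cannot be told apart.

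Shares between related members do not depend on how libraries are scaled. Of Ldha and Ldhb counts, Ldha made up 43.3, 33.9 and 41.7% in sham, 62.3, 62.8 and 68.1% at 7 days, 63.1, 59.3 and 62.1% at 1 month, and 55.7 and 54.4% at 3 months. Sham and injured libraries did not overlap, and the share differed among the 4 groups (exact permutation test on the upper tail of the sum of squares between groups, over 92400 assignments, p adjusted over 6 shares = 0.00234). Aldoc as a share of Aldoa and Aldoc was 65.5, 74.6 and 73.4% in sham and 25.4 to 39.4% after injury (exact permutation p adjusted = 0.00234).

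Hk2 as a share of the 2 hexokinases was 19.1, 6.85 and 6.33% in sham, 31.2, 33.4 and 26.6% at 7 days, 23.8, 24.3 and 37.7% at 1 month, and 45.1 and 46.5% at 3 months (exact permutation p adjusted = 0.00442). Slc16a3 as a share of the 2 lactate carriers was 6.04, 3.74 and 9.01% in sham, 11.4, 18.2 and 16.7% at 7 days, 22.2, 24.4 and 37.8% at 1 month, and 34.6 and 39.5% at 3 months (0.00536 by the same exact test). In both, the 3 sham libraries were the lowest of the 11. Pdk4 made up 31.8 to 39.2% of Pdk1 and Pdk4 in sham and 14.5 to 21.9% at 7 days, with overlap of sham and later times (exact permutation p adjusted = 0.0231, lost at 0.0811 without 7-day replicate 2 and at 0.0737 without 7-day replicate 3). Pfkp as a share of the 3 phosphofructokinase genes had means of 14.7 to 16.8% in the 4 groups (exact permutation p adjusted = 0.844).

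**Figure D3:**
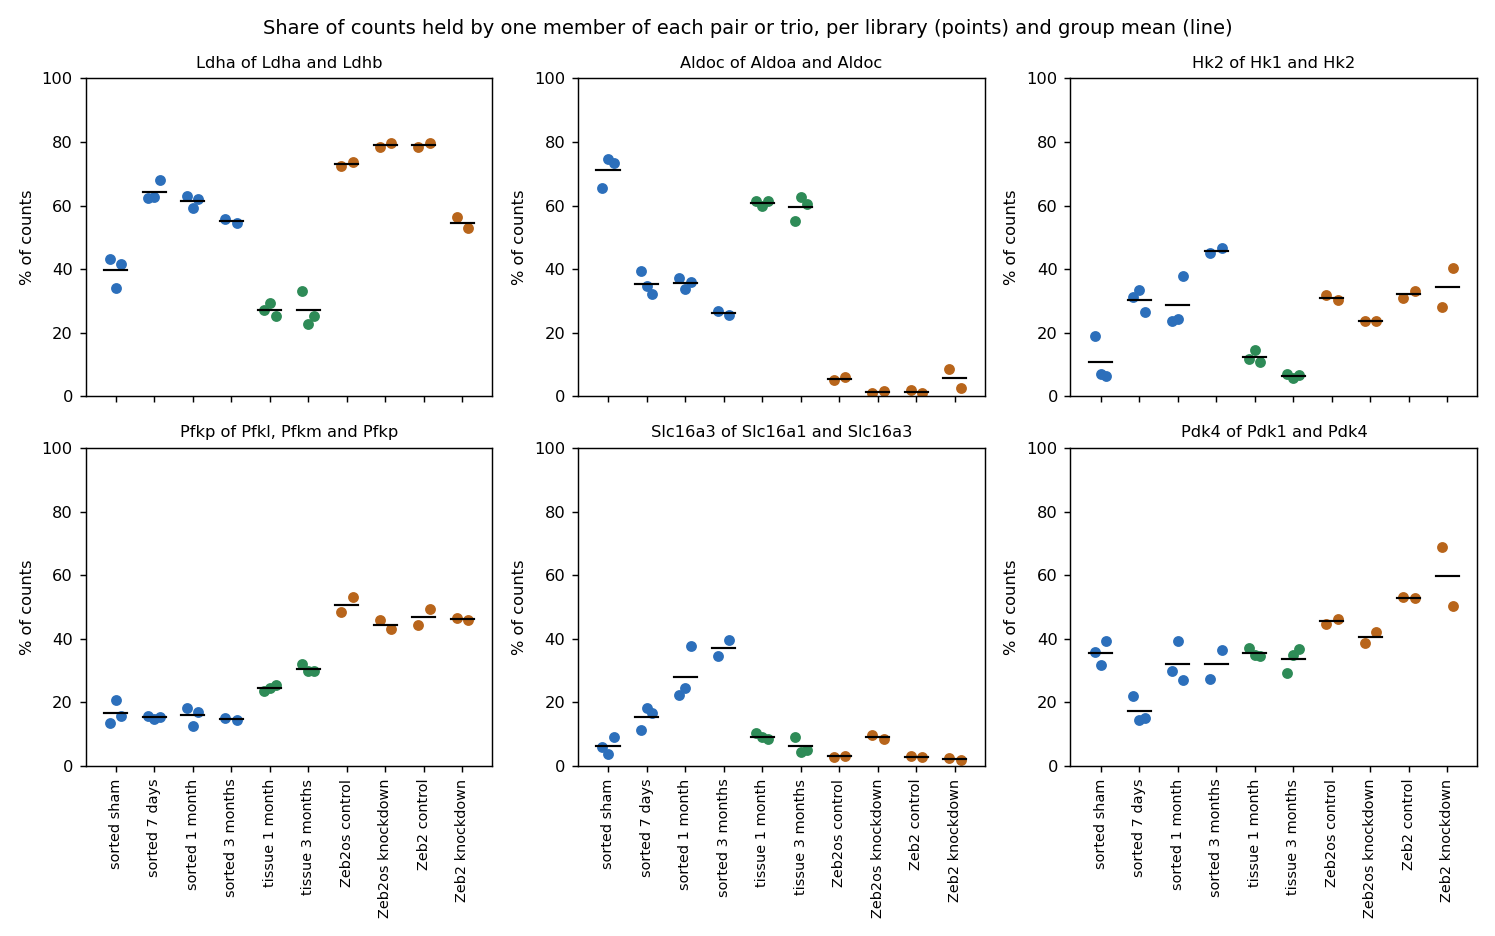
Percent of counts held by the named member of each pair or trio, per library (points) and group mean (lines), in sorted (blue), tissue (green) and culture (orange) libraries, on axes from 0 to 100%. The sorted sham libraries stand above the injured ones for Aldoc and below them for Ldha, Hk2 and Slc16a3, and the cultures hold under 10% Aldoc.

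Whole tissue was compared between 3 months and 1 month after injury. Of 34 members 7 changed, 2 up and 5 down, against a background of 14.7% of 19652 genes tested (6.69% higher, 8.01% lower), and the changes were small. Hk2 read 30.8, 34.9 and 28.8 CPM at 1 month and 23.2, 16.2 and 19.7 CPM at 3 months, with no overlap and a log2 change of -0.68 ± 0.14 (adjusted p = 0.0214). Adm fell from 5.30, 6.96 and 6.15 CPM to 3.32, 3.465 and 4.38 CPM (-0.72 ± 0.17, 0.0317). Hif1a fell from 139, 149 and 127 CPM to 92.4, 105 and 111 CPM (-0.43 ± 0.09, 0.0214).

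Pfkp rose from 169, 154 and 184 CPM to 247, 231 and 225 CPM (0.47 ± 0.08, adjusted p = 0.0125). Bnip3 rose by 0.31 ± 0.07 (0.0291), and Slc16a1 and P4ha1 fell by 0.35 and 0.22 on the log2 scale (0.0302 and 0.0476). The P4ha1 call was lost in 9 of 10 alternatives, among them DESeq2, its size factors and no count filter (highest 0.195). These calls depended on single libraries: none of the 7 held without 1-month replicate 1 or 2, and 4, 3 and 1 members were called without 1-month replicate 3 and 3-month replicates 2 and 3, against 13 without 3-month replicate 1. Microglia and macrophage markers summed to 5556 to 7592 CPM at 1 month and 2142 to 3178 CPM at 3 months, with 11 of 12 falling. Neuron markers summed to 3232 to 4278 CPM and 4873 to 5560 CPM, and 6 of 9 tested rose. The part of either in the tissue changes was not tested. Aldoc stayed at 1301 to 1554 CPM in the 6 tissue libraries and, per kb, was the highest member at both times. Tissue and sorted tables were scaled separately, so levels across them are only set side by side.

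The difference between the sorted and tissue changes from 1 to 3 months was tested in a joint fit. That fit took a single spread per gene for both kinds of sample. Fitted alone, the common coefficient of variation between replicates was 0.63 in the sorted table and 0.137 in the tissue table. The joint standard errors may therefore be too small for the sorted change. In all 9 members differed, 8 with a more positive change in sorted cells and 1 (Epas1) with a more negative one, against a background of 14% of 23259 genes (5.92% higher, 8.08% lower). Slc2a1 differed by 0.78 ± 0.10 on the log2 scale (adjusted p = 0.00103), from 200.4 to 212 CPM up to 322 and 330 CPM in sorted cells and from 187 to 198 CPM down to 161 to 176 CPM in tissue. Hk2 differed by 1.66 ± 0.33 (0.00797) and Pfkfb3 by 0.75 ± 0.12 (0.00253). Those 3 passed under each alternative tried, and they were the members still called by voom with a weight per kind of sample, which called 3. The count fell to 4 without tissue 1-month replicate 1 or tissue 3-month replicate 3 and to 5 without tissue 1-month replicate 2. All 12 microglia and macrophage markers differed the same way as Hk2, with a median of 2.44, and their part was not tested.

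**Figure D4:**
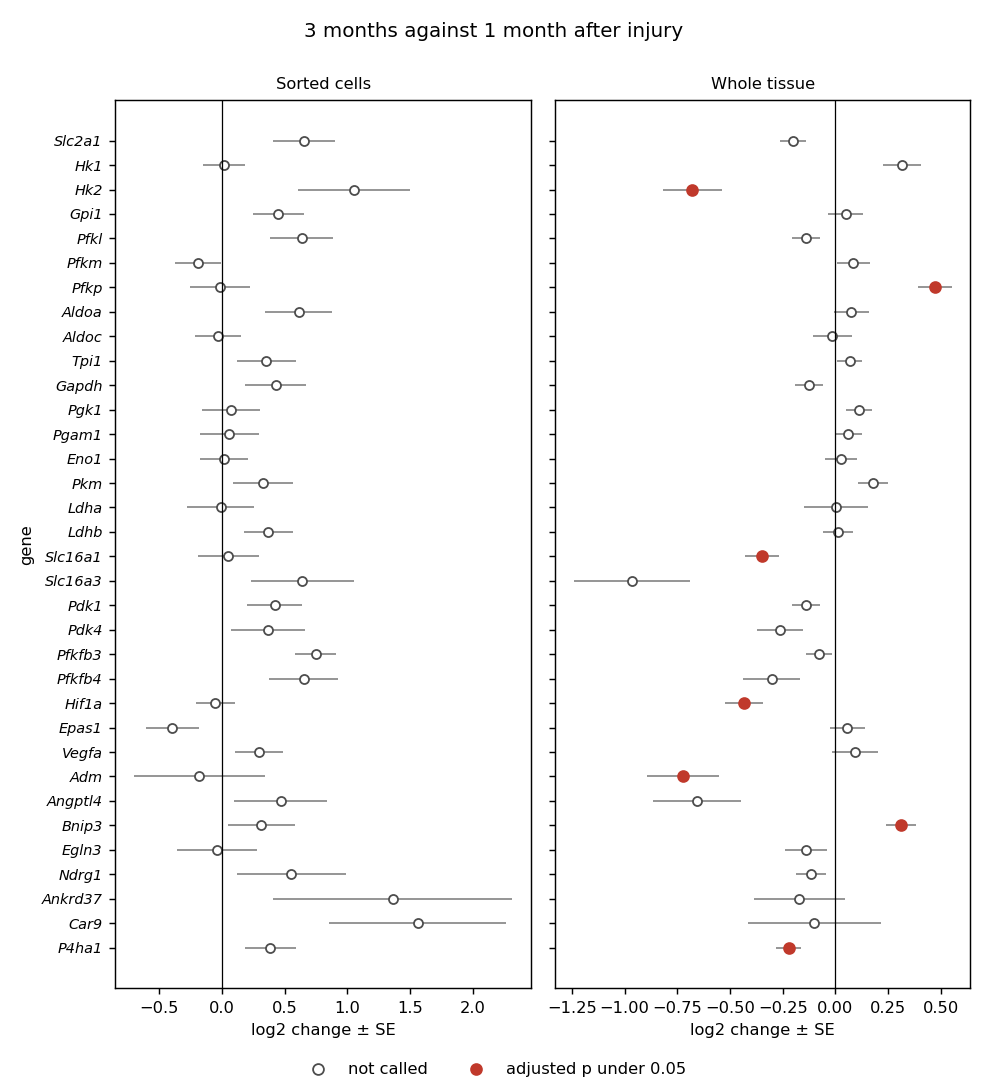
Log2 change with its standard error from 1 to 3 months after injury for the 34 members in sorted cells (3 and 2 libraries) and whole tissue (3 and 3 libraries), with red points for adjusted p under 0.05. Hk2, Slc2a1 and Pfkfb3 lie right of 0 in sorted cells and left of 0 in tissue, with wider errors in sorted cells, where no point is red.

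In the cultures no member was called in either set. For the libraries labelled Zeb2os knockdown the background was 0.188% of 20741 genes (0.121% higher, 0.0675% lower), 9 members had an unadjusted p under 0.05, and DESeq2 called 4 (Aldoc, Pfkfb3, Ndrg1 and Slc16a3). Aldoc read 40.8 and 38.4 CPM in controls and 10.3 and 16.9 CPM in the labelled knockdown libraries (-1.54 ± 0.26, adjusted p = 0.0641). Ndrg1 read 127 and 130 CPM against 57.02 and 64.4 CPM (-1.08 ± 0.21, 0.0883), and Pfkfb3 55.2 and 89.6 CPM against 31.0 and 32.9 CPM (-1.18 ± 0.255, 0.119). Slc16a3 was the reverse, at 4.54 and 4.13 CPM in controls against 8.91 and 8.78 CPM (1.03 ± 0.27, 0.181). The count of members called ran from 0 without knockdown replicate 1 to 15 without control replicate 1, with 4 without control replicate 2 and 1 without knockdown replicate 2. Gfap, as a marker of the astrocytes, was 519 and 517 CPM in controls and 194 and 160 CPM in the labelled knockdown libraries.

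In the Zeb2 set the background was 0% of 17600 genes, 2 members had an unadjusted p under 0.05, and DESeq2 called 0 members. Zeb2 itself was at -2.83 ± 0.33 with an adjusted p of 0.999. Aldoc read 15.5 and 8.18 CPM in controls and 64.2 and 27.9 CPM in knockdown libraries (1.96 ± 0.54), and Ldhb 172 and 162 CPM against 292 and 540 CPM (1.32 ± 0.39), each with an adjusted p of 0.999. Ldha made up 78.5 and 79.7% of lactate dehydrogenase counts in controls and 56.4 and 52.9% in knockdown libraries. The 2 knockdown libraries differed widely from each other: Pgk1 read 267 and 1100 CPM, Gapdh 1446 and 3546 CPM, and Angptl4 3.59 and 45.8 CPM. Without knockdown replicate 2, the fit called 2 members, Aldoc and Pgk1. For Aldoc the effect in the Zeb2os set minus that in the Zeb2 set was -3.54 ± 0.64 (adjusted p = 0.396). No member passed that test of a difference between sets (background 0%), 4 had an unadjusted p under 0.05, and DESeq2 called 1. The sets also differed in when puromycin was started.

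**Figure D5:**
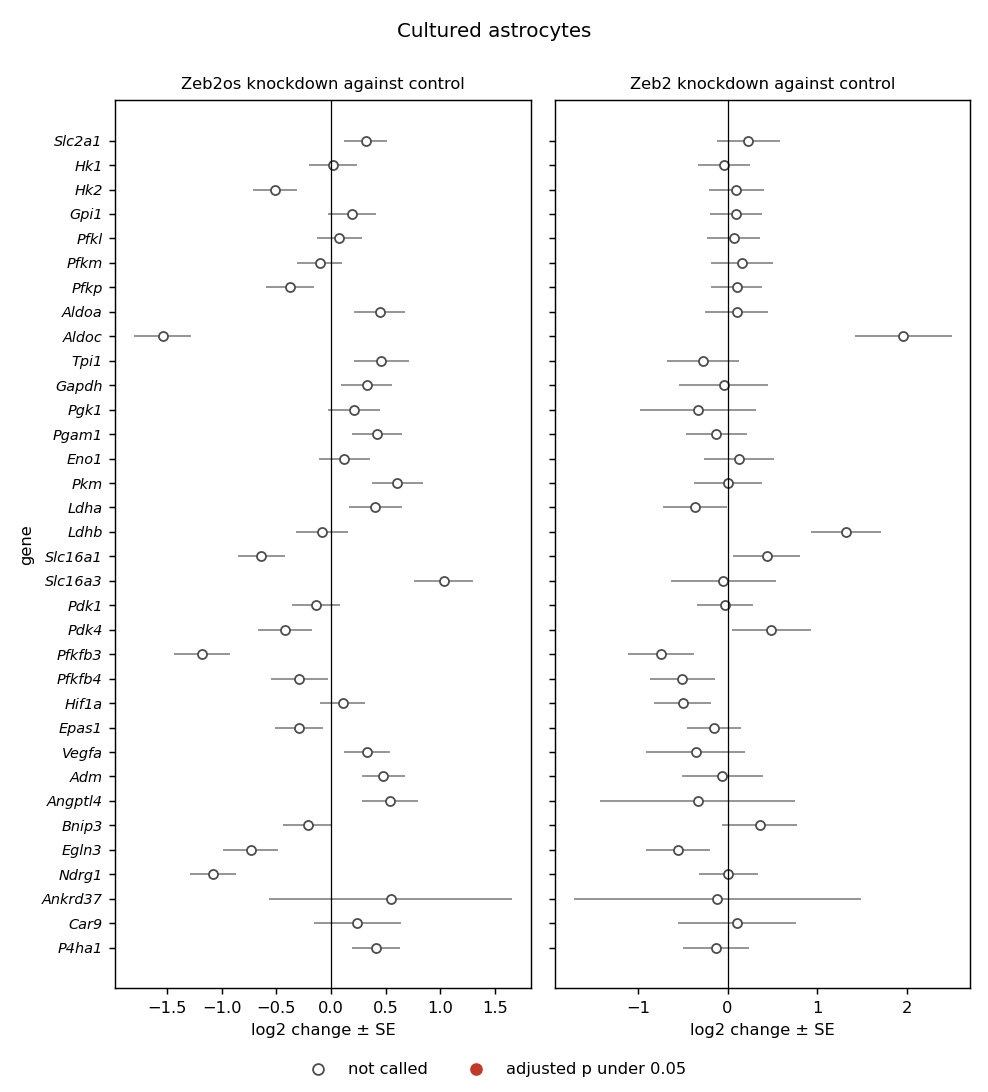
Log2 change with its standard error for the 34 members in cultured astrocytes, knockdown against control, in the Zeb2os set and the Zeb2 set (2 libraries per group). All points are open, since none passed the adjusted p of 0.05, and Aldoc lies left of 0 in the Zeb2os set and right of 0 in the Zeb2 set.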

How the data were processed

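RNA was sequenced in 25 libraries, deposited in 4 tables of whole-number counts per gene with no normalization. Per the submitters' processing notes the authors used FastQC, TopHat2 2.1.0, Cufflinks 2.2.1, DESeq2 and build mm10, with no role given. The counting program, annotation and strand setting are not given in the sources used here, and the library kit, per the labels' protocols, is directional. Genes were matched to GENCODE M21 by base identifier (33340 of 33489). Of the Zeb2 set, 33 rows (0.00161% of its counts) matched no gene of the sorted table and were left out.

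Each table was fitted alone with edgeR 4.0.16 in R 4.3.3: filterByExpr at a minimum count of 10, TMM scaling, and the quasi-likelihood F test over all genes with Benjamini-Hochberg adjustment at 0.05. The 4 sorted groups shared a fit. Differences between contrasts used joint fits on the genes of both tables, with a single spread per gene. CPM values are from the TMM-scaled totals, and log2 changes have standard errors. Isozyme shares (6) were compared by an exact permutation test over sorted libraries. Alternatives were DESeq2 1.42.0 and its size factors, no filter, 2 groups alone, a replicate block, voom (limma 3.58.1) and leaving out each library. The fits were tested on simulated counts. Replicates of each group differed by more than sampling noise, with a chi-square per gene of 3.26 to 395.

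The members and gene lists were chosen with earlier results of these data known. Given per library are members called in a comparison and the highest member per exonic length of each role, with other members by range, count or log2 change. Of those, Hk1, Pdk1, Pgk1, Pgam1, Eno1, Egln3, Ankrd37 and Car9 were chosen after their values were seen. Named from the further lists are the 3 highest and 3 lowest called genes, of which 1 is not reported here.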

Additional observations from a re-analysis of the deposited data

Results flagged for a closer look

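In all 9 members changed differently from 1 to 3 months in sorted cells and in whole tissue, by the test of the difference itself (edgeR quasi-likelihood, joint fit, sorted change minus tissue change on the log2 scale), against a background of 14% of all genes tested. They were Hk2 (1.66), Slc16a3 (1.54), Pfkfb4 (0.88), Slc2a1 (0.78), Pfkfb3 (0.75), P4ha1 (0.53), Gapdh (0.48), Aldoa (0.46) and Epas1 (-0.53). The adjusted p ran from 0.00103 for Slc2a1 to 0.0472 for P4ha1. Aldoa (0.0457) and P4ha1 were each lost in 9 of 11 fits without a library, Pfkfb4 in 6, Slc16a3 in 5, Gapdh in 3 and Epas1 in none of them. With voom 6 of the 9 were no longer called, Epas1 (0.106) among them, and with no count filter Aldoa and P4ha1 were not called. The joint fit took a single spread per gene for both kinds of sample, while voom gave each kind a weight.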

How the results depend on the processing

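Counts of called members depended on the fit. Fitting the 2 groups alone gave 5 members at 3 months against sham (8 with the shared fit), 9 at 1 month against 7 days (4), 14 at 3 months against 7 days (5) and 6 at 3 months against 1 month (0). With no count filter the counts were 8, 11 and 2 for those 3 comparisons of injured groups, 3 for the Zeb2os set, 1 for the Zeb2 set and 1 for the difference between sets (0 in each of these as reported). DESeq2 gave 8 at 1 month against 7 days, 1 at 3 months against 1 month, 4 for Zeb2os and 1 for the difference between sets, and its size factors gave 1 at 3 months against 1 month. The joint time comparison gave 3 with voom (9). Over all genes, calls moved by more than 1.5 times as well: with the 2 groups alone to 885 from 2844 at 3 months against sham, 3560 from 633, 3763 from 1470 and 1277 from 94 in those later comparisons. DESeq2 gave 4406 (2927) at 1 month against sham, 4628 (2844) at 3 months, 1763 (633), 2809 (1470) and 851 (94) in the later comparisons, 7365 (4886) over all sorted groups, 551 (39) for Zeb2os, 33 (0) for Zeb2 and 185 (0) for the difference between sets. No filter gave 1406, 2464 and 749 in the later comparisons, 625 for Zeb2os, 142 for Zeb2 and 393 for the difference between sets, and voom gave 1259 (3256). The cause of these shifts was not tested. Leaving out a library gave 10 to 17 at 7 days against sham, 6 to 12 at 1 month, 6 to 11 at 3 months, 2 to 2 at 1 month against 7 days, 3 to 4 at 3 months against 7 days, 0 to 0 at 3 months against 1 month, 11 to 19 over all sorted groups, 0 to 13 in tissue, 0 to 15 in the Zeb2os set, 0 to 2 in the Zeb2 set, 4 to 11 for the joint time comparison and 0 to 6 for the difference between sets. The adjusted exact permutation p then ran from 0.00143 to 0.00857 for the Ldha and Aldoc shares, 0.00254 to 0.01 for Hk2, 0.462 to 0.889 for Pfkp, 0.000952 to 0.0129 for Slc16a3 and 0.0145 to 0.0811 for Pdk4. Where 1 culture library was left, it was assumed to vary like the others. No called member changed direction under an alternative. TMM and size factors shifted the median of all genes by at most 0.05.

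The replicate numbers are not stated to pair samples. Same-numbered samples had deviations correlated at -0.402 to -0.0177 in tissue, -0.262 to 0.214 in sorted cells, 0.0229 for Zeb2os cultures and 0.433 for Zeb2 cultures. With the replicate number as a block the counts were 13, 8 and 8 against sham, 0 in tissue (7 without it), 3 for Zeb2os and 1 for Zeb2. Over all genes the block gave 506 calls in tissue (2889), 554 for Zeb2os (39) and 79 for Zeb2 (0).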

Other observations

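Further genes of the same pathways, from lists of 34 glycolysis and pyruvate genes and 31 hypoxia genes, moved in both directions in sorted cells. At 7 days against sham 4 of the first list were higher and 6 lower, and of 30 tested genes of the second 5 were higher and 3 lower (background 18.3%). The largest falls were those of Pygm, the muscle-type glycogen phosphorylase (-4.46 ± 0.35, adjusted p = 8.76e-07), from 115 to 130 CPM in sham to 2.98 to 6.82 CPM, of Hif3a, an inhibitor-like factor subunit (-3.87 ± 1.11, 0.0221), and of Pklr, a pyruvate kinase (-2.50 ± 0.34, 0.000123). Among the rises were those of Lox, which crosslinks collagen (3.77 ± 0.61, 0.000436), and Hk3, a hexokinase of myeloid cells (2.30 ± 0.72, 0.0362).

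At 1 month 2 were higher and 8 lower in the first list and 3 higher and 3 lower in the second (background 12.1%), among them Hk3 (2.38) and Lox (2.15) up and Pygm (-3.74), Pklr (-2.82) and Ak4 (-1.83) down. At 3 months the counts were 2 and 7, and 3 and 3 (background 11.7%), with Hk3 at 3.36 ± 0.79 and Lox at 3.33 ± 0.63, and Pygm at -3.58 ± 0.39, Pklr at -2.50 ± 0.40 and Ak4 at -1.62 ± 0.33. Hk3 moved beside the microglia and macrophage markers given with the sorted results, and their part was not tested.

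In tissue from 1 to 3 months none of the 30 tested hypoxia genes rose and 9 fell, against a background of 8.01% lower, among them Hmox1, heme oxygenase (-0.90 ± 0.21, adjusted p = 0.0322). Of the 34 glycolysis and pyruvate genes 5 were called, a share at the background of 14.7%. Of these 3 rose, Slc2a3, the neuronal glucose transporter, by 0.52 ± 0.12 (0.0276), Tigar by 0.40 ± 0.09 (0.0325) and Pdha1 by 0.28 ± 0.06 (0.0301), and 2 fell, among them Slc16a8 (-0.84 ± 0.21, 0.0363). In the same comparison 6 of 9 tested neuron markers rose and 11 of 12 microglia and macrophage markers fell. The part of either was not tested. Over all genes, calls in this comparison fell from 2889 to 305 without tissue 1-month replicate 1 and to 573 without replicate 2. In the cultures, Eno3, the muscle enolase, was the 1 gene of both lists called, higher in the libraries labelled Zeb2os knockdown (1.71 ± 0.26, 0.0463), from 4.00 and 5.14 CPM to 14.7 and 15.2 CPM.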
